A study of Mus musculus with 2 samples.

Results

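The genes described here encode the proteasome and its partners. They were taken by name, as every gene whose symbol starts with Psm, a letter from a to g and a number, which gave 50 of the 32285 genes in the files. They comprise 7 genes of the 20S alpha ring, 7 of the 20S beta ring, 6 19S ATPases, 11 other 19S subunits, 5 inducible or tissue-restricted 20S subunits, 3 chaperones of 19S assembly, 4 activators, 1 inhibitor and 4 chaperones of 20S assembly. A further 2 share the name only in part: *Psmc3ip* encodes a partner of meiotic recombinases, and *Psme2b* is a near-identical copy of *Psme2*, so that reads of this pair cannot be assigned with certainty.

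The proteasome degrades proteins that carry ubiquitin. Its 20S core is a barrel of alpha and beta rings with the peptidase sites inside, and its 19S cap binds ubiquitin, removes it and drives the substrate into the barrel with a ring of ATPases. Other caps (PA28, PA200) open the core without ubiquitin, and immune signals exchange the catalytic beta subunits for inducible ones. In neurons the complex is needed for protein turnover at rest and at synapses.

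Cajal-Retzius (CR) cells, the *Reln*-expressing neurons that mostly die in the first weeks after birth, were sorted as DAPI-, tdT+ cells from the hippocampus of mice on postnatal day 14 and measured by 3′ single-cell RNA-sequencing. The control library pooled 4 *ΔNp73-Cre; Cic flox/+; tdT* mice (3 males and 1 female), in whose CR cells Cre removes 1 *Cic* allele. The knockout library came from 4 pooled littermates of the genotype *ΔNp73-Cre; Cic flox/flox; tdT* (2 males and 2 females), and all mice carried the Cre and the tdT reporter. The Cre is driven from the *ΔNp73* locus, which reaches the CR cells that come from the cortical hem, and by the study's own staining CIC protein was gone from only part of these cells. Each genotype was 1 library of pooled animals, so no difference between genotypes had a replicate, no significance test was possible, and the intervals given are exact Poisson or binomial 95% intervals of counting error alone.

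Barcodes with at least 2000 unique molecular identifiers (UMIs, 1 for each captured RNA molecule) and at least 5 *Reln* UMIs were taken as cells, which gave 1003 control cells with 2012 to 31769 UMIs (median 6224) and 390 knockout cells with 2769 to 33453 UMIs (median 6664). No barcode was selected in both libraries. All 9 CR markers had UMIs in each library. The 11 lists of other cell types summed to 0.151 to 81.9 CPM in control and 0.362 to 78.5 CPM in knockout cells, each with a median of 0 over cells, against 15135 and 14718 CPM for the CR markers. *Reln*, by which the cells were selected, made up 8176 and 7873 CPM of these CR sums, so that part follows from the selection. Cells were divided by the share of UMIs from 98 nuclear genes of oxidative phosphorylation (OXPHOS) at 1.8%, which put 83 control and 34 knockout cells in the high class and 920 and 356 in the low class. This class is a range of a score and not a cell type, and 11 control and 9 knockout cells lay between 1.6% and 2.0%. Barcodes of 20 to 100 UMIs, too few for a cell, served as the measure of RNA outside cells (29040 in the control with a median of 89 UMIs, and 75813 in the knockout with a median of 44). *Cic* itself, at 58.9 CPM (UMIs of a gene per 1000000) in control and 51.3 CPM in knockout cells, does not check the labels, because the deleted exons are not given in the sources used here and a 3′ count can lie outside them. Levels are CPM or percent of the UMIs left once mitochondrially encoded (mt-) and ribosomal protein genes (Rpl, Rps, Mrp) are set aside, and since each molecule is counted once at its 3′ end, they compare genes by molecules without correction for length.

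Proteasome genes are known targets of NFE2L1, which binds the antioxidant response element, and the promoters of the members were searched for it and for other motifs of such genes. RefSeq promoters (GRCm38.p6, 250 bases before to 50 after the start, 300 in all) matched 42 of the 50 members. The element TGACNNNGC, on either strand, was in 6 of 42 (14.3%) beside 12.5% of all 27025 promoters, in *Psmb5*, *Psmb6*, *Psmc6*, *Psmd12*, *Psmd9* and *Psme4*. The motif TGCGCATGC of nuclear respiratory factor 1 (NRF1), a different factor from NFE2L1, was in 1 of 42 (2.38%, 1.59% of all). CCAAT was in 15 of 42 (35.7%, 37.9% of all). The promoters of *Psmb6* and *Psme4*, the members with the highest and the lowest ratio of high to low OXPHOS cells in the control (5.21 and 0.493), both held the element. It begins 9 bases before the RefSeq start in *Psmb6* (chr11:70525107-70525406, + strand). In *Psme4* (chr11:30771525-30771824, + strand) it begins 7 bases before that start, on the other strand, and runs across it. The GENCODE annotation starts *Psme4* further upstream, at 30771726, so there the element lies inside the gene span. Both promoters are shown as the ends of that range of ratios, with the element in capitals. The element was not found in the windows of *Psmb4* and *Psmc5*, the next highest in the control (5.13) and the highest in the knockout (4.57).
Psmb6: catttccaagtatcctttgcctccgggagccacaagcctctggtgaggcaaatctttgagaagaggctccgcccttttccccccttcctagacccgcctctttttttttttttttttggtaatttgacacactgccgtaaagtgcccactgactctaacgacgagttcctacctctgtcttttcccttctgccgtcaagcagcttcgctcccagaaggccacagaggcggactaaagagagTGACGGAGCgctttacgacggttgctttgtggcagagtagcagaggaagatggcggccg
Psme4: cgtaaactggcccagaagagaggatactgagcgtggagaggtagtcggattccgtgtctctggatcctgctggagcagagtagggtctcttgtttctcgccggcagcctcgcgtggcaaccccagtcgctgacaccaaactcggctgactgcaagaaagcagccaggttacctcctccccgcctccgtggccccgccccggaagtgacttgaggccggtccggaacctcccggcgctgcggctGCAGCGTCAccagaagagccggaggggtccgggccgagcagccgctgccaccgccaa

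Every CR cell had UMIs of proteasome genes. Together they took 0.297% of UMIs in control cells (19594 UMIs) and 0.298% in knockout cells (8236 UMIs), and 0 cells were without a member UMI. Of the 50 genes, 48 had a UMI in control cells and 47 in knockout cells. *Psmb11*, the thymic subunit, and *Psmb8*, an inducible catalytic subunit, had none in the cells of either library. A count of 0, read as up to 3 counts, allows a share of up to 0.299% of control and 0.769% of knockout cells with a UMI (0.367% and 0.941% as the upper bound of the Clopper-Pearson interval used for shares elsewhere).

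The most abundant member was *Psme4*, which encodes PA200, a nuclear cap of the 20S core. It had 273 CPM in control and 264 CPM in knockout cells. *Psma3*, an alpha subunit, followed at 214 and 207 CPM. Next came *Psmd14*, the deubiquitinase of the 19S lid, at 164 and 178 CPM, and *Psmd11*, another lid subunit, at 150 and 156 CPM. The catalytic genes of the standard core were all present: *Psmb5* (chymotrypsin-like) at 65.4 and 66.9 CPM, *Psmb6* (caspase-like) at 58.3 and 53.9 CPM, and *Psmb7* (trypsin-like) at 75.4 and 62.5 CPM. Their inducible counterparts were rare. *Psmb10* had 46 UMIs in control and 20 in knockout cells (6.97 and 7.23 CPM), *Psmb9* had 2 and 1 UMIs, and the testis subunit *Psma8* had 4 and 1. *Psme2b* had 3 and 0 UMIs and *Psmc3ip* 27 and 12.

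**Figure D1:**
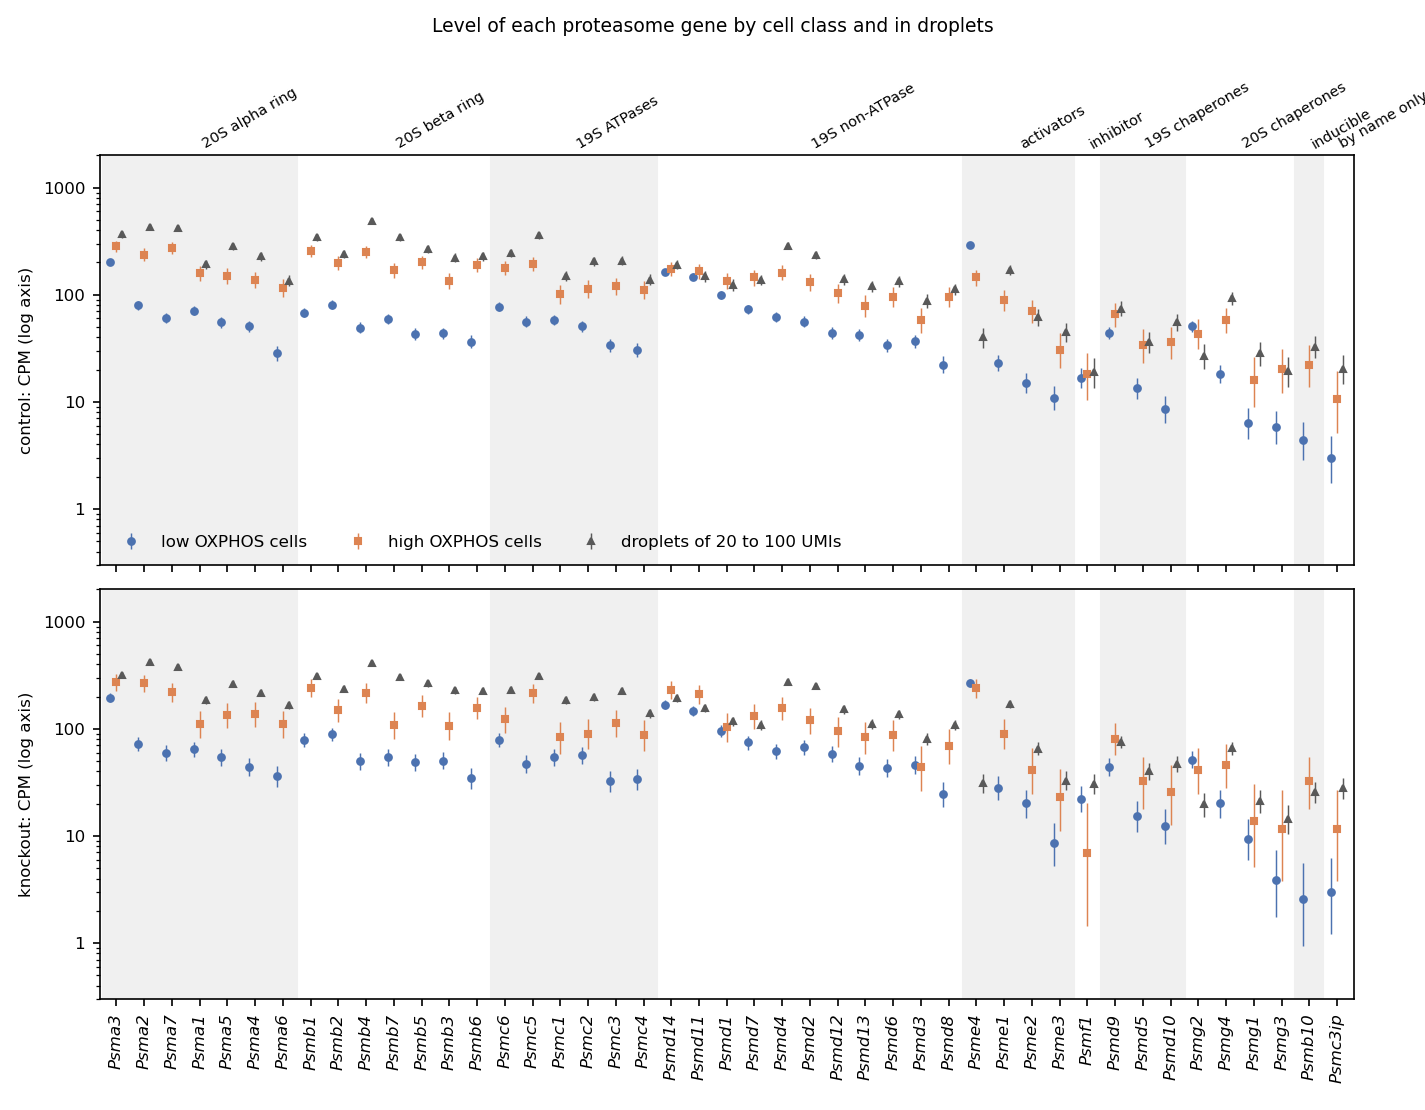
Level of each proteasome gene with at least 30 UMIs over the cells of both libraries, in CPM on a log axis, for low OXPHOS cells, high OXPHOS cells and droplets, with the control above and the knockout below. Bars are exact 95% counting intervals and a gene without UMIs in a class has no point. For most genes the high class lies above the low class and the droplets above both, whereas *Psme4* is highest in low OXPHOS cells (294 CPM in the control) and lowest in droplets (39.9 CPM).

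To ask whether loss of *Cic* changed these genes, the libraries were compared over all cells. The summed share differed by less than the counting error, with a ratio of knockout to control of 1.00 (0.978 to 1.03). Of the 41 members with at least 100 UMIs, 0 were higher and 0 lower by 1.5-fold or more, where 2.73% of the 9442 genes compared were higher and 1.66% lower. The member ratios ran from 0.787 to 1.21 around a median of 1.01, and the median of all genes was 1.00.

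The highest member ratios were *Psmd12* at 1.21 (1.00 to 1.45; 63.6 against 52.7 CPM), *Psmd6* at 1.18, *Psmf1* at 1.17, *Psme1* at 1.17 and *Psma6* at 1.16. *Psmd12* and *Psmd6* are lid subunits, and *Psmf1* encodes the inhibitor PI31. The lowest were *Psme3* at 0.787 (0.503 to 1.2; 10.8 against 13.8 CPM), *Psmb7* at 0.829 (0.693 to 0.988), *Psma1* at 0.859, *Psmc1* at 0.922 and *Psma4* at 0.923. *Psme3* encodes PA28γ, the nuclear form of the PA28 cap. The interval of *Psme3* held 1, and that of *Psmb7* lay below it.

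By role the ratios of the sums were all within 1.5-fold, most of them further from 1 than the ratio of all members together. The alpha ring was at 0.963 (0.911 to 1.02), the beta ring at 0.992 (0.932 to 1.05) and the ATPases at 0.968 (0.899 to 1.04). The other 19S subunits were at 1.06 (1.01 to 1.11), the only role whose interval left out 1. The activators were at 0.982 (0.909 to 1.06), the 19S chaperones at 1.08 (0.923 to 1.27) and the 20S chaperones at 0.999 (0.858 to 1.16). Among single chaperones, *Psmd5* had a ratio of 1.10, *Psmd9* of 1.06, *Psmd10* of 1.15, *Psmg2* of 1.00 and *Psmg4* of 1.01. The fainter *Psmg1* and *Psmg3* had 28 against 51 and 14 against 52 UMIs. Scaled to the 2765943 knockout and 6601724 control UMIs, *Psmg1* was higher and *Psmg3* lower in the knockout. Both had under 100 UMIs and so were outside the count of members past 1.5-fold. *Psmd4*, the ubiquitin receptor, was at 1.01, *Psmd14* at 1.08, *Psme2* at 1.03, *Psme4* at 0.966, *Psmb5* at 1.02 and *Psmb6* at 0.924.

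Of 25 other genes of the ubiquitin-proteasome pathway, all compared, 0 passed 1.5-fold in either direction. Of all genes compared, 2.73% were higher and 1.66% lower, so 0 of 25 is near that share. The highest was *Uchl5*, a deubiquitinase of the cap, at 1.30 (1.01 to 1.65). The lowest were *Pomp*, the maturation factor of the core, at 0.743 (0.612 to 0.897) and *Rad23b*, a shuttle for ubiquitinated proteins, at 0.786. Among the comparison complexes, the COP9 signalosome was at 0.969 (*Cops7b* and *Cops2* lowest at 0.818 and 0.829, *Cops7a* and *Cops8* highest at 1.10 and 1.23). The translation factor eIF3 was at 1.04 (*Eif3g* 0.726 and *Eif3e* 0.913, *Eif3d* 1.33 and *Eif3l* 1.42). The chaperonin CCT was at 1.05 (*Cct4* 0.794 and *Cct8* 0.933, *Cct5* 1.25 and *Tcp1* 1.26), and the vacuolar ATPase at 1.05 (*Atp6ap1l* 0.787 and *Atp6v1f* 0.869, *Atp6v1g2* 1.22 and *Atp6v1c1* 1.24). No gene compared in these 4 complexes passed 1.5-fold, which is likewise near the share of all genes. Nuclear-retained transcripts were at 0.994, from *Miat* at 0.9 and *Rian* at 0.923 to *Kcnq1ot1* at 1.06 and *Meg3* at 1.11.

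**Figure D2:**
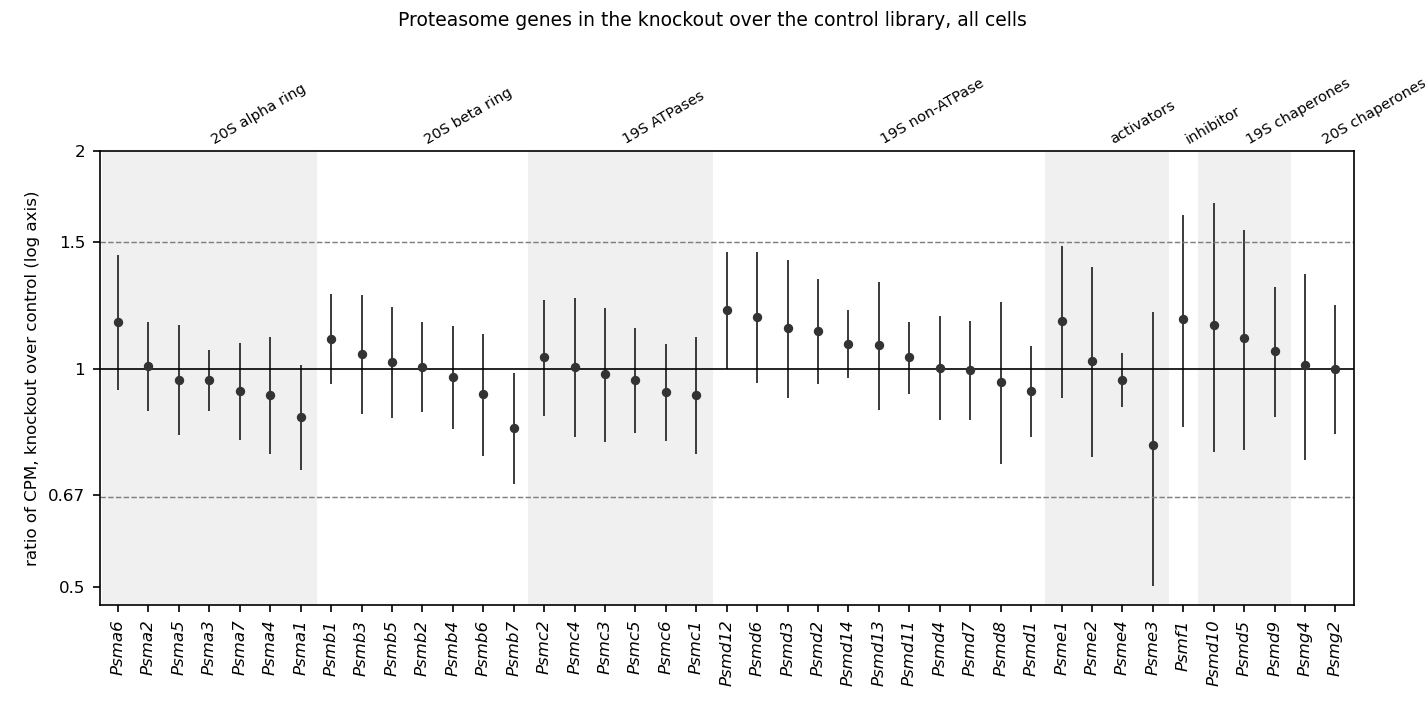
Ratio of CPM in knockout over control cells for each of the 41 proteasome genes with at least 100 UMIs, grouped by role, on a log axis. Bars are exact 95% counting intervals, the solid line marks 1 and the dashed lines 1.5-fold in each direction. All points lie between 0.787 and 1.21, inside the dashed lines.

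Within the OXPHOS classes the genotypes were compared separately. In low OXPHOS cells the share was 0.253% in the control and 0.258% in the knockout, a ratio of 1.02 (0.987 to 1.05). Of 39 members compared 0 passed 1.5-fold in either direction, against 2.96% of all genes higher and 2.02% lower. The highest were *Psme2* at 1.34, *Psmf1* at 1.33, *Psmd12* at 1.31, *Psmd6* at 1.28 and *Psma6* at 1.26, and the lowest *Psmc5* at 0.839, *Psma4* at 0.864, *Psmb7* at 0.901, *Psma1* at 0.907 and *Psme4* at 0.912. Of these the interval of *Psmd12* (1.05 to 1.62) lay above 1. In high OXPHOS cells the share was 0.558% in the control and 0.514% in the knockout, a ratio of 0.921 (0.876 to 0.968). The beta ring had a ratio of 0.820 (0.738 to 0.910) there and the ATPases 0.871 (0.760 to 0.995), whereas the other 19S subunits were at 0.991 (0.896 to 1.09). Of 32 members compared in high OXPHOS cells, 1 was higher by 1.5-fold or more (*Psme4*, 1.64, 1.26 to 2.14) and 1 lower (*Psmb7*, 0.646, 0.456 to 0.899), beside 3.34% and 3.44% of all genes. Next highest were *Psmd14* at 1.32, *Psmd11* at 1.27, *Psma2* at 1.12 and *Psmc5* at 1.10, and next lowest the ATPase *Psmc6* at 0.685, *Psma1* at 0.704, *Psmd8* at 0.728 and *Psmb2* at 0.763. The knockout high class rested on 34 cells of 1 library. A single one of them held 14 of the 103 *Psme4* UMIs, and without it the level was 217 CPM, beside 145 CPM in the control. The share of high cells with a *Psme4* UMI after 1 random thinning to equal depth, given below, had wide intervals that overlapped. It does not show which library was higher. The other pathway genes (0.847, 0.814 to 0.882) and COP9 (0.863, 0.754 to 0.986) were also lower there, eIF3 was at 0.921 (0.841 to 1.01), and nuclear-retained transcripts were at 1.05 (1.03 to 1.07).

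Members differed more between OXPHOS classes than between genotypes, and so did genes at large. The classes are cut on an expression score of the same cells and the genotype is a label of whole libraries, so these sizes are not alike. In the control library proteasome genes took 0.558% of UMIs in high and 0.253% in low OXPHOS cells, a ratio of 2.2 (2.14 to 2.27). In the knockout the shares were 0.514% and 0.258%, a ratio of 2.00 (1.90 to 2.09). Of 39 members compared in the control, 31 were higher by 1.5-fold or more and 1 was lower, where 23.9% of 8220 genes outside OXPHOS were higher and 28.0% lower. Of these, 27 members were higher by 2-fold or more (15.8% of all genes). In the knockout 27 of 34 members were higher and 0 lower (20.6% and 25.8% of 5146 genes), and 17 were higher by 2-fold or more (12.9% of all genes). The members' median ratio was 2.61 (control) and 1.93 (knockout), beside 0.892 and 0.876 for all genes.

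The beta ring, which holds the peptidase sites, differed most among the roles with more than 100 UMIs. Its sum was 3.68-fold (3.43 to 3.94) higher in high OXPHOS cells of the control and 2.83-fold (2.53 to 3.15) in the knockout, and 7 of 7 members passed 1.5-fold in each library. *Psmb6* rose from 36.4 to 190 CPM in the control (5.21, 4.24 to 6.40) and from 34.7 to 157 CPM in the knockout (4.54, 3.24 to 6.34). *Psmb5* was at 4.71 and 3.37 and *Psmb7* at 2.81 and 2.02. *Psmb4*, a structural beta subunit, was at 5.13 and 4.34. In each of these genes all 4 class levels kept the same order, with both high classes above both low classes.

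The alpha ring, which forms the gate of the barrel, had a ratio of 2.47 (2.31 to 2.63) in control and of 2.38 (2.14 to 2.63) in knockout cells. *Psma7* was the highest in the control at 4.48 (272 against 60.8 CPM) and was at 3.67 in the knockout, beside *Psma2* at 2.98 and 3.66. *Psma3*, the most abundant, was the 1 alpha gene short of 1.5-fold in each library, at 1.4 (1.22 to 1.6) and 1.39 (1.12 to 1.71). The ATPases were at 2.68 (2.46 to 2.91) and 2.35 (2.05 to 2.69), and 6 of 6 passed in each library. *Psmc5* was at 3.47 and 4.57.

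The other 19S subunits differed least among the subunits, at 1.73 (1.62 to 1.84) and 1.61 (1.46 to 1.76), with 8 of 11 and 6 of 10 past 1.5-fold. *Psmd14* had 175 CPM in high and 162 CPM in low OXPHOS cells of the control (1.08, 0.906 to 1.27) and 232 and 168 CPM in the knockout (1.38, 1.10 to 1.72). *Psmd11* was at 1.13 and 1.44, *Psmd1*, the scaffold of the base, at 1.37 and 1.09, and *Psmd3* at 1.58 and 0.959 (0.556 to 1.57). The ubiquitin receptor *Psmd4* was at 2.61 and 2.51. The 19S chaperones were at 2.05 and 1.93 as a sum: *Psmd5* at 2.52 in the control and, under 100 UMIs, 2.10 in the knockout, *Psmd9* at 1.49 and 1.84, and *Psmd10*, under 100 UMIs in each library, at 4.16 and 2.05.

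The activators went in opposite directions. *Psme1* and *Psme2* encode the paired subunits of the PA28αβ cap and lie close to each other on chromosome 14 (GRCm38, 55578123 to 55581529 and 55587441 to 55591113). *Psme1* had 89.0 CPM in high and 23.2 CPM in low OXPHOS cells of the control (3.84, 2.89 to 5.09) and was at 3.19 in the knockout. *Psme2* was at 4.66 (3.32 to 6.50) in the control and, with 18 and 47 UMIs, at 2.07 (1.13 to 3.63) in the knockout. *Psme3*, under 100 UMIs, was at 2.80 and 2.70.

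Among members with at least 100 UMIs, *Psme4* was the 1 whose CPM was lower in the high class by 1.5-fold or more, in the control. There it had 145 CPM in high and 294 CPM in low OXPHOS cells (0.493, 0.411 to 0.587). In the knockout it had 238 and 269 CPM (0.888, 0.714 to 1.09), so the intervals of the libraries did not overlap. In the high class 71.1% of 83 control and 85.3% of 34 knockout cells had a *Psme4* UMI at full depth. With each cell thinned to 2000 UMIs in 1 random draw, these shares were 21.7% (13.4% to 32.1%) and 17.6% (6.76% to 34.5%). In low OXPHOS cells they were 41.2% (38.0% to 44.5%) and 40.4% (35.3% to 45.8%). In that draw *Psme4* was seen in a smaller share of high than of low cells of each library. These intervals leave out the error of the draw, and the interval of the knockout CPM ratio (0.714 to 1.09) held 1. A single knockout high cell held 14 of the 103 UMIs, and the level was 217 CPM without it. With *Psme4* in the sum, the activators were at 0.975 (0.863 to 1.10) in control and 1.21 (1.02 to 1.43) in knockout cells.

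The inhibitor *Psmf1* was at 1.07 (0.6 to 1.81) in the control, and had 3 UMIs in high against 52 in low OXPHOS cells of the knockout (0.312, 0.0623 to 0.963). Of the 20S chaperones, *Psmg2* was at 0.854 (0.6 to 1.19) and 0.810 (0.465 to 1.34), whereas *Psmg4*, another chaperone of alpha ring assembly, was at 3.2 (2.26 to 4.48) and 2.30. *Psmg1* and *Psmg3* were under 100 UMIs, at 2.50 and 1.47 and at 3.45 and 3.00. The inducible *Psmb10* had 21 UMIs in high and 25 in low OXPHOS cells of the control (5.04, 2.68 to 9.37) and 14 and 6 in the knockout (12.6, 4.55 to 40.0). *Psmc3ip* had 10 and 17, and 5 and 7 UMIs as raw counts. Scaled to the UMIs of the classes, it was higher in the high class of each library, on few UMIs. The 5 lowest members compared were thus *Psme4*, *Psmg2*, *Psmf1*, *Psmd14* and *Psmd11* in the control, and *Psmg2*, *Psme4*, *Psmd3*, *Psmd1* and *Psmd14* in the knockout.

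**Figure D3:**
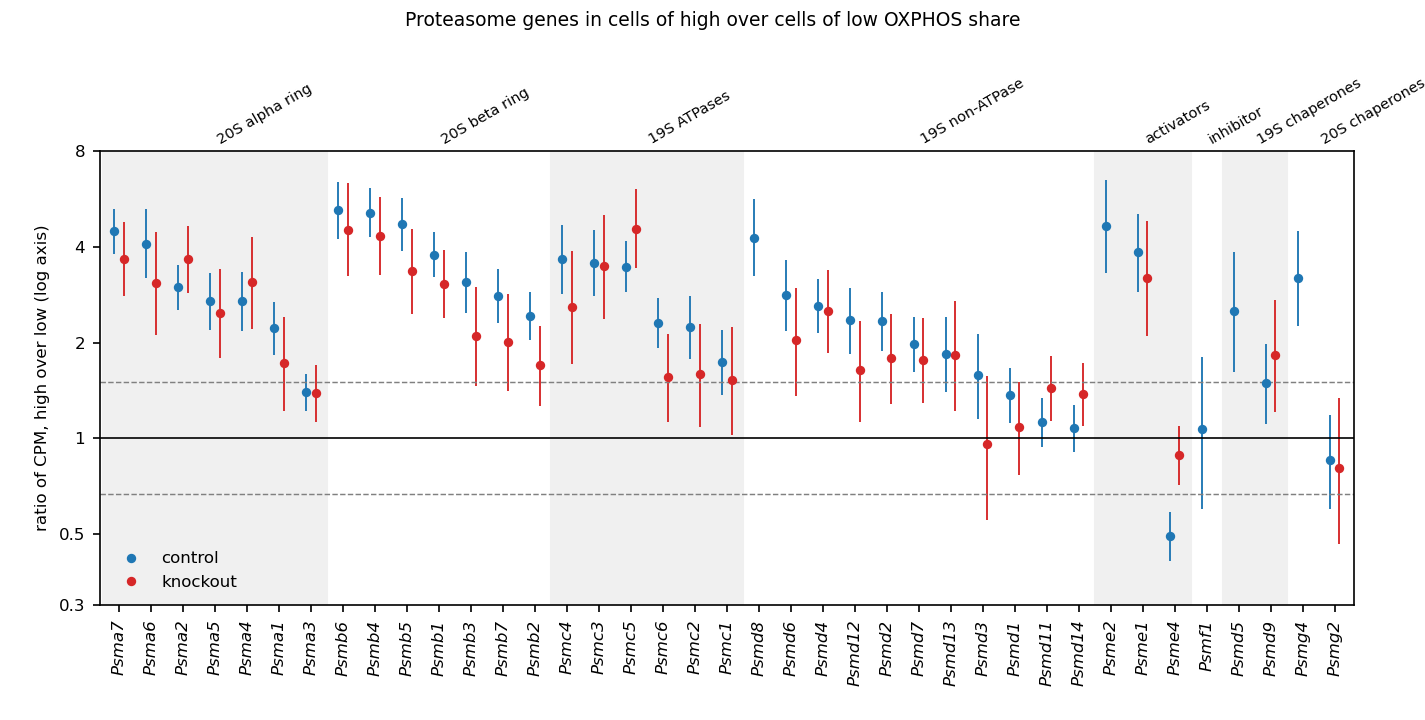
Ratio of CPM in cells of high over cells of low OXPHOS share for proteasome genes with at least 100 UMIs, in the control (39 genes, blue) and the knockout (34 genes, red), grouped by role, on a log axis. Bars are exact 95% counting intervals, the solid line marks 1 and the dashed lines 1.5-fold. The beta ring genes all lie above 1.5 in each library, and *Psme4* lies at 0.493 in the control and 0.888 in the knockout.

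The pattern over members was similar in the libraries, which share no cells. Over the 34 members compared in each, Spearman's rho between the ratios was 0.910. Of these, 26 passed 1.5-fold in each library, 17 passed 2-fold in each, and 27 had the larger ratio in the control. Of all genes, 23.9% (control) and 20.6% (knockout) were higher by 1.5-fold or more in the single libraries, and 15.8% and 12.9% by 2-fold. The overlap and rho over all genes were not computed, so this likeness is not shown to be particular to proteasome genes.

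Genes outside the list differed in the same direction. The other pathway genes had a summed ratio of 2.87 (2.79 to 2.94) in control and 2.37 (2.27 to 2.46) in knockout cells, with 14 of 25 and 10 of 22 higher and 2 and 1 lower. *Pomp* was at 6.0 and 6.84. The lowest were *Ube3c*, a proteasome-bound ubiquitin ligase, at 0.627 and 0.675, and *Uba6*, a ubiquitin-activating enzyme, at 0.653 and 0.635.

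Of complexes with other functions, CCT was at 3.15 and 2.80, with 8 of 8 genes higher in each library (*Cct3* and *Tcp1* lowest at 2.45 and 2.72 and *Cct2* and *Cct4* highest at 3.40 and 3.68 in the control, *Cct8* and *Cct3* lowest at 1.86 and 1.88 and *Tcp1* and *Cct4* highest at 3.49 and 4.42 in the knockout). eIF3 was at 3.22 and 2.74, from *Eif3a* and *Eif3l* at 1.67 and 1.68 to *Eif3g* and *Eif3f* at 5.74 and 6.62 in the control, and from *Eif3c* and *Eif3a* at 1.42 and 1.53 to *Eif3k* and *Eif3f* at 4.2 and 9.51 in the knockout. COP9, a relative of the 19S lid, was at 2.17 and 1.88. Its lowest were *Cops3* and *Cops8* at 1.26 and 1.29 in the control and *Cops3* and *Gps1* at 0.965 and 1.16 in the knockout, and its highest *Cops6* and *Cops9* at 5.58 and 6.67 and *Cops2* and *Cops9* at 1.75 and 8.04. The vacuolar ATPase was at 1.39 and 1.21 as a sum, with *Atp6v1g1* at 8.95 and 9.74, *Atp6v1f* at 5.98 and 7.73 and *Atp6v0a1* at 0.613 and 0.669, beside *Atp6ap1l* at 0.620 in the control and *Atp6v0e2* at 0.596 in the knockout.

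Several measures of the cells moved with the class. The high class had more UMIs per cell, with a median of 13502 against 6064 in the control and 14230 against 6420 in the knockout. Mitochondrial transcripts took 1.89% of all UMIs in high and 3.17% in low OXPHOS cells of the control, and 2.29% and 3.88% for the knockout library. The 6 nuclear-retained transcripts were lower in sum, at 0.456 (0.450 to 0.461) and 0.482 (0.474 to 0.490), with 6 of 6 and 5 of 6 lower by 1.5-fold or more. *Miat* and *Mirg* were the lowest in the control (0.294 and 0.390) and *Kcnq1ot1* and *Rian* the highest (0.485 and 0.570). For the knockout library *Malat1* and *Mirg* were the lowest (0.475 and 0.507) and *Rian* and *Miat* the highest (0.642 and 0.831). All 9 CR markers had UMIs in each class, at a sum of 12848 CPM in high and 15517 CPM in low OXPHOS cells of the control and 12987 and 15039 CPM in the knockout. Single CR markers went in both directions, the same in each library. *Reln* (5790 against 8574 CPM in the control) and *Ndnf* were lower in the high class. *Ebf3* was lower in the control (662 against 887 CPM) and only slightly so in the knockout (801 against 848 CPM). *Calb2* (384 against 56.7 CPM in the control, 563 against 84.8 CPM in the knockout), *Nhlh2*, *Lhx1* and *Lhx5* were higher. *Trp73* was higher in the control (549 against 458 CPM) and near level in the knockout (498 against 491 CPM), and *Cacna2d2* was slightly lower in each. The granule neuron list was higher in the high class of the control (49.8 against 21.2 CPM over 4 of 4 markers, median over cells 0). In the knockout this list was near level (32.4 against 30.8 CPM, 14 UMIs in the high class). There *C1ql2* and *Calb1* were higher and *Prox1* and *Dsp* lower. The mural list was higher in the knockout (97.2 against 72.4 CPM, from 1 of 4 markers in the high class) but not in the control (80.5 against 82.2 CPM). Their part in the proteasome difference was not tested. In cells of 8000 to 16000 UMIs the ratio was 2.39 in the control (45 and 171 cells) and 2.35 in the knockout (12 and 92 cells). Median depth still differed in this range, at 13372 against 8986 UMIs in the control and 13921 against 9452.5 UMIs in the knockout. With each cell thinned to 2000 UMIs the mean number of member UMIs per cell was 10.2 against 4.85 and 9.0 against 4.93 (unthinned, 63.5 against 15.6 and 65.3 against 16.9).

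Cell by cell the ranges of the classes overlapped, but few cells lay past the median of the other class. The median share was 0.566% (0.280% to 0.893%) in control high cells and 0.249% (0.0503% to 0.717%) in low cells, and 0.499% (0.237% to 0.977%) and 0.249% (0.0521% to 0.579%) in the knockout. All 83 control high cells and 33 of 34 knockout high cells lay above the low median of their library, and 3 of 920 and 6 of 356 low cells lay above the high median. Thinned to 2000 UMIs, *Psmb6* was seen in 39.8% (29.2% to 51.1%) of control high and 5.98% (4.54% to 7.71%) of low cells, against 84.3% and 19.3% unthinned. In the knockout it was seen in 23.5% (10.7% to 41.2%) and 4.21% (2.38% to 6.85%), against 70.6% and 20.8% unthinned. In droplets 1.65% of control barcodes had a *Psmb6* and 0.282% a *Psme4* UMI, at a median of 89 UMIs each, and 0.839% and 0.115% of knockout barcodes, at a median of 44.

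The share of proteasome UMIs rose along the OXPHOS share within the classes too. In the control it went from 0.227% (0.219% to 0.234%) in 244 cells under 0.6% OXPHOS to 0.344% (0.314% to 0.376%) in 23 cells from 1.4% to 1.8%, and to 0.655% (0.627% to 0.683%) in 33 cells at 3% or more. In the knockout it went from 0.214% (0.201% to 0.227%) in 73 cells to 0.617% (0.574% to 0.662%) in 12 cells. The knockout bins from 1.2% up held 10 to 19 cells each and dipped from 0.340% to 0.320% between 1.2% and 1.8%. Spearman's rho between the shares of single cells was 0.273 over 920 and 0.361 over 356 low cells, and 0.708 over 83 and 0.612 over 34 high cells. These points come from 1 library each and both shares have the same denominator. Depth went little with the OXPHOS share within classes (rho from -0.206 to -0.0574).

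**Figure D4:**
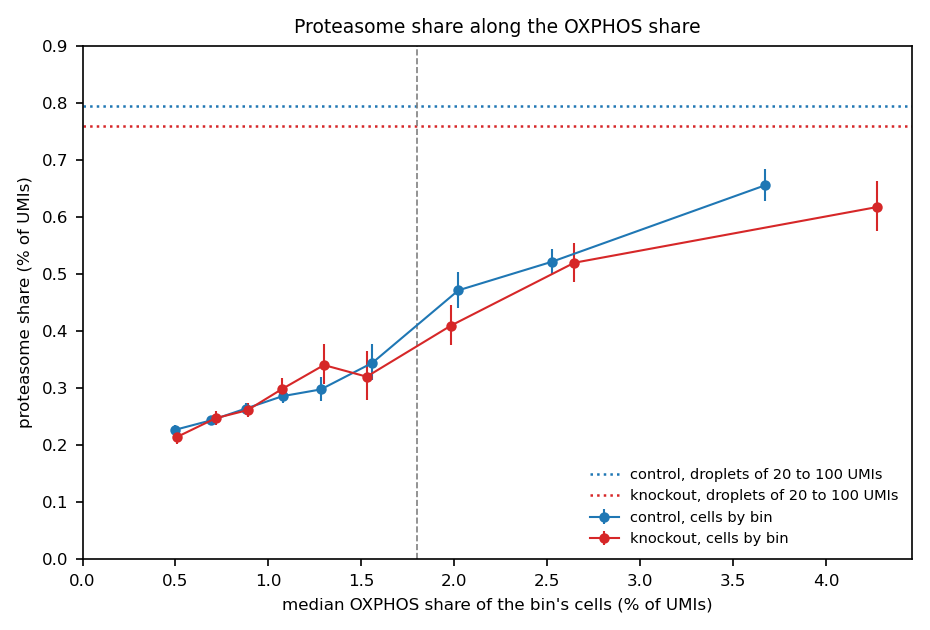
Proteasome share (percent of UMIs outside mt-, Rpl, Rps and Mrp genes) in cells binned by OXPHOS share, at the median OXPHOS share of each bin, for the control (blue) and the knockout (red). Bars are exact 95% binomial intervals, the dashed line marks the 1.8% limit and the dotted lines the droplets of 20 to 100 UMIs. The share goes from 0.227% to 0.655% in the control and from 0.214% to 0.617% in the knockout, below the droplets at 0.793% and 0.760%.

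In droplets of 20 to 100 UMIs the share was above that of both cell classes. Their own OXPHOS share was 4.61% in the control and 4.44% in the knockout, above the 2.85% and 2.81% of the high class. The CR markers summed to 5671 and 6175 CPM, against 15135 and 14718 CPM in cells. Other cell type lists went both ways. In the knockout, astrocyte markers were at 199 against 35.4 CPM and pyramidal neuron markers at 34.9 against 74.5 CPM. The part of these differences in the droplet share was not tested. Proteasome genes took 0.793% of droplet UMIs in the control, 2.67 times (2.62 to 2.73) the share in its cells, and 0.760% in the knockout, 2.55 times (2.49 to 2.62). Of 43 members compared in the control 37 were higher in droplets by 1.5-fold or more and 2 lower, against 32.7% and 40.3% of 9358 genes. In the knockout 35 of 41 were higher and 2 lower, against 35.8% and 37.2% of 8184 genes. The members' medians were 3.29 and 3.03, beside 0.898 and 0.983 for all genes. Droplet and class ratios share the cells of a library, so they are given side by side and not correlated.

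Among members the highest droplet ratios in the control were *Psmb4* at 6.24 (488 against 78.2 CPM), *Psme1* at 5.23, *Psmc5* at 4.70, *Psmb10* at 4.68 and *Psma7* at 4.63, and in the knockout *Psmb4* at 5.35, *Psmc3* at 5.04, *Psmb7* at 4.90, *Psme1* at 4.49 and *Psma7* at 4.43. *Psme4* was at 39.9 CPM in droplets against 273 CPM in control cells (0.146, 0.117 to 0.181), and at 30.9 against 264 CPM in the knockout (0.117, 0.0935 to 0.145). *Psmg2* was at 0.534 (0.397 to 0.708) and 0.396 (0.287 to 0.540). *Psmd11* (0.986 and 0.999), *Psmd14* (1.16 and 1.09) and *Psmd1* (1.18 and 1.2) were near 1. *Psmf1* was at 1.11 (0.756 to 1.6) in the control. The nuclear-retained transcripts were at 0.123 (0.121 to 0.125) and 0.118 (0.116 to 0.120), beside *Psme4*.

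For the remaining fixed members, *Psmb5* was at 4.09 and 3.98, *Psmb6* at 3.90 and 4.2 and *Psmb7* in the control at 4.55. *Psmd4* was at 3.79 and 3.62, *Psmd5* at 2.22 in each, *Psmd9* at 1.58 and 1.52 and *Psmd10* at 4.38 and 3.25. *Psme2* was at 2.69 and 2.77, *Psme3* at 3.23 and 3.03, *Psmf1* in the knockout at 1.54 and *Psmg4* at 3.85 and 2.72. *Psmg1* was at 3.68 and 2.08 and *Psmg3* at 2.45 and 2.86, in part under 100 UMIs. *Psmb8* had 1 control and 5 knockout droplet UMIs, *Psmb9* 0 and 2, *Psma8* 0 and 2, *Psme2b* 0 and 1, *Psmc3ip* 44 and 85, and *Psmb11* 0 in each.

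The role sums ran from the beta ring at 4.04 and 3.80, the ATPases at 3.44 and 3.53 and the alpha ring at 3.11 and 3.05 to the other 19S subunits at 1.99 and 1.86 and the activators at 0.924 and 0.891. The other pathway genes were at 3.66 and 3.54 (*Ecpas*, a proteasome adaptor, lowest at 0.274 and 0.224 and *Uba6* next at 0.381 and 0.372, with *Sem1*, a small 19S subunit, at 6.51 in the control and *Pomp* at 7.19 in the knockout). CCT was at 3.91 and 3.5 (control *Cct4* 3.02 and *Cct3* 3.56 to *Cct6a* 4.62 and *Cct7* 4.70, knockout *Tcp1* 3.11 and *Cct5* 3.19 to *Cct8* 3.99 and *Cct7* 4.15). eIF3 was at 3.26 and 2.95 (control *Eif3a* 1.63 and *Eif3c* 2.25 to *Eif3f* 5.36 and *Eif3g* 6.95, knockout *Eif3a* 1.52 and *Eif3l* 1.89 to *Eif3f* 4.92 and *Eif3g* 8.60). All 8 CCT and 12 eIF3 genes were higher by 1.5-fold or more in each library. COP9 was at 2.24 and 2.18 (control *Cops7b* 0.561 and *Cops3* 1.04 to *Cops9* 4.71 and *Cops6* 5.65, knockout *Cops3* 1.13 and *Cops8* 1.26 to *Cops6* 5.13 and *Cops9* 5.34). The vacuolar ATPase was at 1.28 and 1.15 and held both directions, with 8 of 19 genes higher and 9 lower in the control (*Atp6ap2* 0.208 and *Atp6ap1* 0.293 to *Atp6v1g1* 4.74 and *Atp6v1f* 5.23) and 8 of 18 higher and 7 lower in the knockout (*Atp6ap1l* 0.249 and *Atp6v0a1* 0.266 to *Atp6v1f* and *Atp6v1g1* at 4.94 each). Over all genes, 32.7% were higher and 40.3% lower in control droplets, and 35.8% and 37.2% in knockout droplets. The vacuolar ATPase thus held both directions much as genes at large did. Of the nuclear-retained transcripts *Kcnq1ot1* (0.0485 and 0.0456) and *Malat1* (0.112 and 0.108) were the lowest, and *Rian* (0.393 and 0.473) and *Miat* (0.821 and 0.455) the highest. Between the libraries the droplet share was lower in the knockout, at 0.957 (0.939 to 0.976), but this direction depended on the UMI range. In barcodes of 100 to 500 UMIs the share was 0.747% in the control (50789 barcodes) and 0.608% in the knockout (581 barcodes). In barcodes of 10 to 50 UMIs it was 0.532% in the control (1276 barcodes) and 0.778% in the knockout (54991 barcodes). The libraries differed in which range held more barcodes, so genotype was not tested apart from range. Of 44 members 1 was higher in knockout droplets, *Psmf1* at 1.63 (1.11 to 2.41), and 0 lower, against 3.81% and 1.72% of all genes. *Psmc3ip* at 1.39, *Psmc1* and *Psma6* at 1.24 each and *Psmd5* at 1.11 followed, and *Psmg4* at 0.713, *Psme3* at 0.739, *Psmg1* at 0.740, *Psmg2* at 0.742 and *Psme4* at 0.775 were the lowest.

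Against the high OXPHOS cells alone, the droplet share was 1.42 times as high in the control and 1.48 times in the knockout, and *Psme4* was at 0.275 (0.208 to 0.362) and 0.130 (0.0970 to 0.173). High OXPHOS cells lay between low OXPHOS cells and these droplets in the summed share of each library. With control barcodes of 10 to 50 UMIs instead (1276 barcodes, 149 member UMIs) the share was 0.532%, below the 0.558% of control high OXPHOS cells.

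The members also differed by the span of the gene, taken from the GENCODE annotation of GRCm38, in which the Ensembl identifiers of 50 of 50 members were found. In the control 13 of 13 members spanning under 10 kb were higher by 1.5-fold or more in high OXPHOS cells (median ratio 3.84), 14 of 17 from 10 to 30 kb (2.31) and 4 of 9 at 30 kb or more (1.49), where 56.7%, 34.3% and 8.30% of all genes of these spans were higher. The knockout had 11 of 11 (3.19), 11 of 14 (1.69) and 5 of 9 (1.70), where 56.4%, 34.4% and 8.44% of all genes were higher. Over all genes compared the medians fell with span, at 1.79, 1.14 and 0.744 in the control and 1.77, 1.11 and 0.788 in the knockout. The member medians fell likewise in the control, but in the knockout not between the last 2 spans. Spearman's rho between span and ratio was -0.639 over 39 and -0.582 over 34 members, and -0.493 and -0.448 over all genes, which are not independent replicates. *Psme4* has the widest span of the members, at 109 kb (chromosome 11, 30771726 to 30880361, + strand), and *Psmb6* spans 2.49 kb (chromosome 11, 70525367 to 70527858, + strand). *Psma2*, at 61.0 kb, was past 1.5-fold in each library and *Psmg2*, at 12.6 kb, in neither. The part of span in the ratio was not tested.

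**Figure D5:**
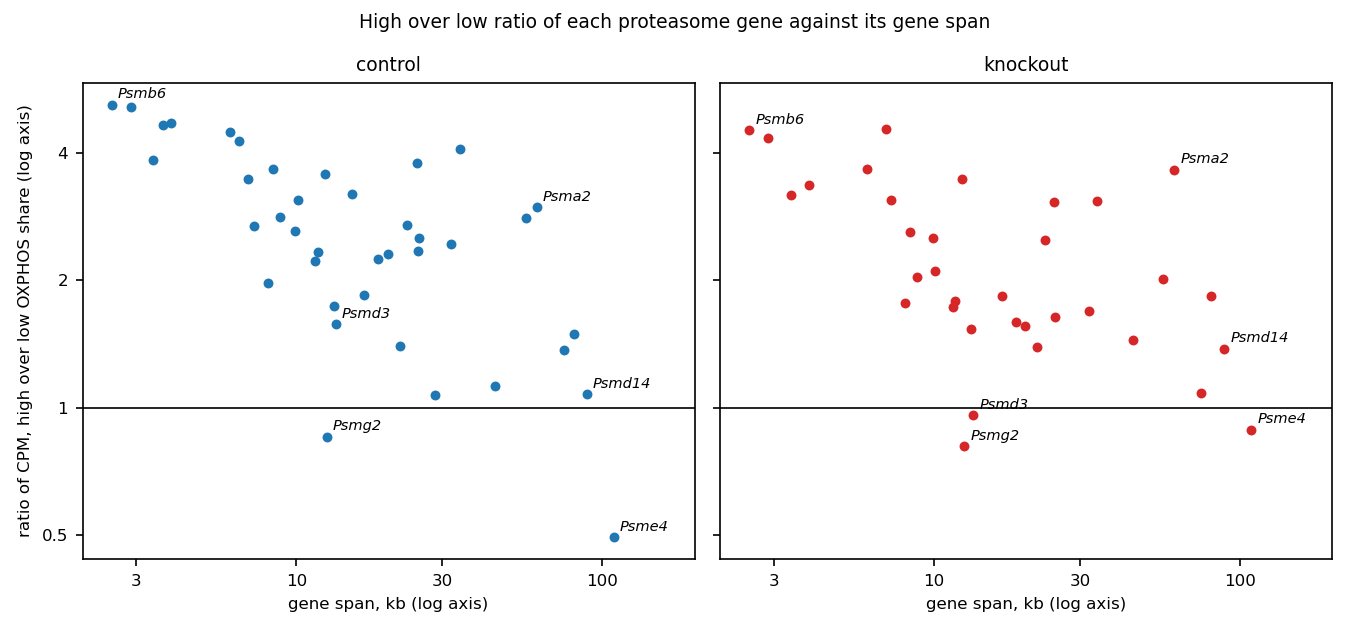
Ratio of CPM in high over low OXPHOS cells of each proteasome gene with at least 100 UMIs against the span of the gene in kb, both on log axes, for the control (left, 39 genes) and the knockout (right, 34 genes). The ratio falls with span from *Psmb6* to *Psme4* (Spearman's rho -0.639 and -0.582), with *Psma2* and *Psmg2* away from the trend.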

How the data were processed

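The authors deposited the counts of UMIs per gene and barcode for each library, made with Cell Ranger and neither normalized nor filtered for cells. The matrix headers give Cell Ranger 4, the submitters' processing notes Cell Ranger 8.0.1 with mm39, and the paper's methods another version with an mm10 reference. Whether introns were counted, and on which strand, is not given in the sources used here, so members that overlap other genes are uncertain. The 2 deposited matrices held 16336796 (control) and 6777071 (knockout) UMIs.

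Here counts were summed over cells in Python 3.11.15 (numpy 2.4.6, scipy 1.17.1, pandas 2.3.3). A level is the count per 1000000 UMIs once 192 mitochondrially encoded and ribosomal protein genes (mt-, Rpl, Rps, Mrp) were set aside. No p-value, standard error or test over cells was made. Ratios carry exact conditional Poisson intervals and shares exact Clopper-Pearson intervals at 95%. Genes were compared from 100 UMIs in both groups together, and OXPHOS genes were left out of comparisons between OXPHOS classes. A count of 0 was read as allowing up to 3 counts. Doublets stayed in, and an alternative removed the highest Scrublet scores (scanpy 1.11.5). Alternatives covered cell limits, OXPHOS and droplet limits, denominators, gene lists, doublets, free RNA and sex. The calculation of ratios and intervals was checked on simulated Poisson counts. These held no variation between cells or mice, so the check does not bear on that spread. Of the 27 pathway symbols listed, 25 were in the files.

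The members, gene lists and comparisons were chosen with earlier results of these data known. By the rule for named genes, the catalytic, inducible and tissue-restricted subunits, receptor, deubiquitinase, activators, inhibitor, chaperones and genes matched by name are given wherever detected, with the 5 highest and 5 lowest member ratios of each comparison and, for all cells, the OXPHOS classes and droplets, the 2 highest and lowest of each other list, except that some pathway genes are not reported here. Other named genes (*Psmd11*, *Psma2* and *Psma3* among them where they are not at these ends) were chosen after their values were seen.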

Additional observations from a re-analysis of the deposited data

How the results depend on the processing

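No paired analysis was possible because each genotype was 1 library, and for the same reason no replicate could be left out. The ratio of knockout to control shares stayed within its counting interval under each alternative but 1, high OXPHOS cells alone (0.921). The ratios between OXPHOS classes (2.2 and 2.00) and of droplets to cells (2.67 and 2.55) stayed above 1 under each alternative run. Outside its interval, the class ratio was 2.33 and 2.11 (control and knockout) with quality limits, 2.07 and 1.90 as a share of all UMIs, 2.44 and 2.15 with 20S and 19S subunits only, 2.43 and 2.12 without *Psme4*, and 2.39 and 2.35 in cells of 8000 to 16000 UMIs. In the control it was 2.61 as the median of member ratios and 2.13 with the limit at 1.5%, and in the knockout 2.11 with the limit at 2.2%. With members spanning under 10 kb, an alternative chosen after seeing the data, it was 3.62 and 3.12. The droplet ratio was 2.75 and 2.65 with quality limits, 2.46 and 2.39 as a share of all UMIs, 2.77 and 2.64 without OXPHOS genes in the denominator, 2.97 and 2.84 with 20S and 19S subunits only, 2.93 and 2.79 without *Psme4*, 3.29 and 3.03 as the median of member ratios, 2.52 and 2.04 with barcodes of 100 to 500 UMIs, and 1.42 and 1.48 against high OXPHOS cells. With barcodes of 10 to 50 UMIs the control ratio was 1.79, from 149 member UMIs in 1276 barcodes.

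The count of members lower in the knockout was 1 from 50 UMIs per gene, 3 with no minimum and 1 at a fold of 1.25. Between OXPHOS classes the members lower were 2 in the control with no minimum, and in the knockout 1 from 50 UMIs and 3 with no minimum. The members higher in the knockout were 17 at a fold of 2 (12.9% of all genes). In control droplets the members lower were 5 with no minimum and 1 at a fold of 2, for which the share of all genes is not reported here. The share of all genes was not computed at the other minimums or at a fold of 1.25. Counts at those settings therefore have no background beside them. Of single members, 2217 values stayed in their interval, 175 left it and 12 were recorded as a change of direction, all in droplets. Such a change was recorded only where the main ratio was past 1.5-fold, and no member was past it between genotypes. A change of side there, as of *Psme4* in high OXPHOS cells alone, was therefore not counted. With barcodes of 10 to 50 UMIs in the control *Psmd9* was 0.758 and *Psmg2* 2.15. With 100 to 500 UMIs in the knockout (581 barcodes, 449 member UMIs) *Psma3* was 0.720, *Psmc1* 0.690, *Psmd12* 0.639, *Psmd4* 0.888, *Psmd9* 0.814, *Psmg2* 1.09 and *Psmg4* 0.559. Against high OXPHOS cells *Psmd7* was 0.948 and *Psme2* 0.879 in the control and *Psmd9* 0.934 in the knockout. The cause was not tested. As a share of all UMIs the median of all genes moved from -0.16 to -0.28 on the log2 scale in control droplets. Precision is limited by the 34 knockout cells of the high class and by the 1 library per genotype.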

Other observations

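Between cells and droplets lay barcodes with 500 to under 2000 UMIs, which no main comparison used. The alternative with a minimum of 1000 UMIs per cell took in some of them. There were 191 in the control (median 811 UMIs) and 51 in the knockout (median 825). Proteasome genes took 0.427% of their UMIs in the control (0.394% to 0.461%) and 0.437% in the knockout (0.375% to 0.507%), between the shares of low and high OXPHOS cells. Their OXPHOS shares were 2.88% and 3.27%, above the limit of the high class, and their median *Reln* counts 4 and 1.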
